A study of Mus musculus with 2 samples.

Results

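The genes described here encode proteins that colonic goblet cells make or secrete, together with the transcription factor Spdef. They are Retnlb, Clca1, Fcgbp, Agr2, Tff3, Zg16, Spdef, Spink4 and Ern2, chosen by name, and they are 9 of the 12393 genes that the array annotation names from a probe set with a single gene symbol. Each had at least 1 such probe set, and together they had 13. Distal colon of wild-type FVB mice was compared with distal colon of IL-9 transgenic mice, a line titled Tg5, with RNA of 4 mice pooled per genotype and hybridised to 1 Affymetrix array each, so there are 2 arrays in all. All mice were kept free of specific pathogens. The age of the mice, and the promoter and cell type that drive the transgene, are not given in the sources used here, and the transgenic animals come from a single line. The transgene's product was checked first: the Il9 probe set 1450565_at had a signal of 5.14 in the wild-type pool and 862 in the transgenic pool, at least 43.6-fold higher.

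Goblet cells are the mucus-secreting cells of the intestinal epithelium. They load large secretory granules with gel-forming mucin and with a set of smaller proteins that are released with it, and the mucus layer they form separates bacteria from the colonic surface. SPDEF, an ETS-family transcription factor, acts late in the maturation of goblet cells, and AGR2 and IRE1β (encoded by Ern2) act in their endoplasmic reticulum. Cytokines of type 2 immunity, among them IL-13, are known to raise goblet cell number and secretion in gut and airway.

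The values are MAS5 signals, which summarise the probes of a probe set on a linear scale in arbitrary units. Ratios are transgenic over wild type, taken on the log2 scale after any signal under 19.8, the 40th percentile of the 2 arrays together, was raised to that value, called the floor. The threshold for calling a gene higher or lower was 2-fold, a log2 ratio of 1 in size. Each gene was represented by its brightest probe set. With 1 array per genotype there are no replicates, no test was run and no difference below has a replicate check. As a technical yardstick, probe sets of the same gene differed in log2 ratio with a pooled SD of 0.28 over 2847 genes. This yardstick is pooled over all signal levels above the floor and holds no spread between mice. The arrays were close in median signal (34.0 wild type, 34.2 transgenic) and in the 3′ to 5′ signal ratio of the Gapdh control probes, a measure of RNA integrity (0.719 and 0.762).

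Promoter sequences were available in RefSeq tables (build GRCm38.p6) for 3 of the 9 genes, and are shown because ETS factors such as SPDEF bind a GGA core and SPDEF itself is known to favour GGAT. Each window runs from 250 bases before to 50 bases after an annotated start, 5′ to 3′ on the gene's strand, and capitals mark GGAT or its reverse complement ATCC. The Spdef window belongs to a start inside the gene's annotated span.
Spdef (chr17:27728902-27729201, - strand): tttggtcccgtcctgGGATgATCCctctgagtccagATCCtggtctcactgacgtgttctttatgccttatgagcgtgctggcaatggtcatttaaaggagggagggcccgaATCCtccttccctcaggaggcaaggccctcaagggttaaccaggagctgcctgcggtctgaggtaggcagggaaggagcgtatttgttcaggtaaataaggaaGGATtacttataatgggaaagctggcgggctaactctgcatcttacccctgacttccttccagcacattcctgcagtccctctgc
Agr2 (chr12:35992675-35992974, + strand): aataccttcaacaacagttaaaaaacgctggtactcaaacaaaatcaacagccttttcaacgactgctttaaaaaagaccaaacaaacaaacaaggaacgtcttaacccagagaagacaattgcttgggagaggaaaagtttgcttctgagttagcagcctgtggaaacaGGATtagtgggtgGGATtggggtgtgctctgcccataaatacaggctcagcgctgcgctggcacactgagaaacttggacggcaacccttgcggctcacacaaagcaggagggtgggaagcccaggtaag
Fcgbp (chr7:28070986-28071285, + strand): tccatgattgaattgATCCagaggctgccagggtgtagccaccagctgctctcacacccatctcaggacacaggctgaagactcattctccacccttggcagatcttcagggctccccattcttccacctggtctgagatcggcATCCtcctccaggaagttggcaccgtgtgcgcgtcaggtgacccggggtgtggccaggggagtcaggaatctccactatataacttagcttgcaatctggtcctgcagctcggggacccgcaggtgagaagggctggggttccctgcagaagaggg
The Spdef window held 2 copies of GGAT and 3 of ATCC, the Agr2 window 2 copies of GGAT, and the Fcgbp window 2 copies of ATCC. The motif is short and common: on either strand it was present in 79.6% of 32851 promoter windows of the same length, with a median of 2 copies. The longer form CCGGAT, searched on both strands, was in 6.04% of all windows and in none of these 3. These matches are a description of the letters and bear on no binding.

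All 9 genes exceeded the floor in both pools, and 8 had a log2 ratio above 0, against 56.0% of the 8346 measured genes. The 8 include Tff3 (0.14) and Agr2 (0.23), both under the SD of 0.28 between probe sets of a gene. That SD covers all signal levels above the floor. Among probe sets above 2000 on both arrays, as these 2 are, the 5th and 95th percentiles were −0.17 and 0.23. The other Agr2 probe set had −0.92. By brightest probe sets, Retnlb was the only member at 2-fold, a call that 0.767% of measured genes received. The other Clca1 probe set had 1.97. None of the 9 was 2-fold lower, against 0.611% of measured genes. Log2 ratios ran from −0.01 for Zg16 to 1.003 for Retnlb, with a median of 0.40 beside a median of 0.04 over all measured genes. Of the 9, 4 lay above 0.5 (Retnlb, Spdef, Spink4 and Fcgbp), as did 6.13% of measured genes.

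**Figure D1:**
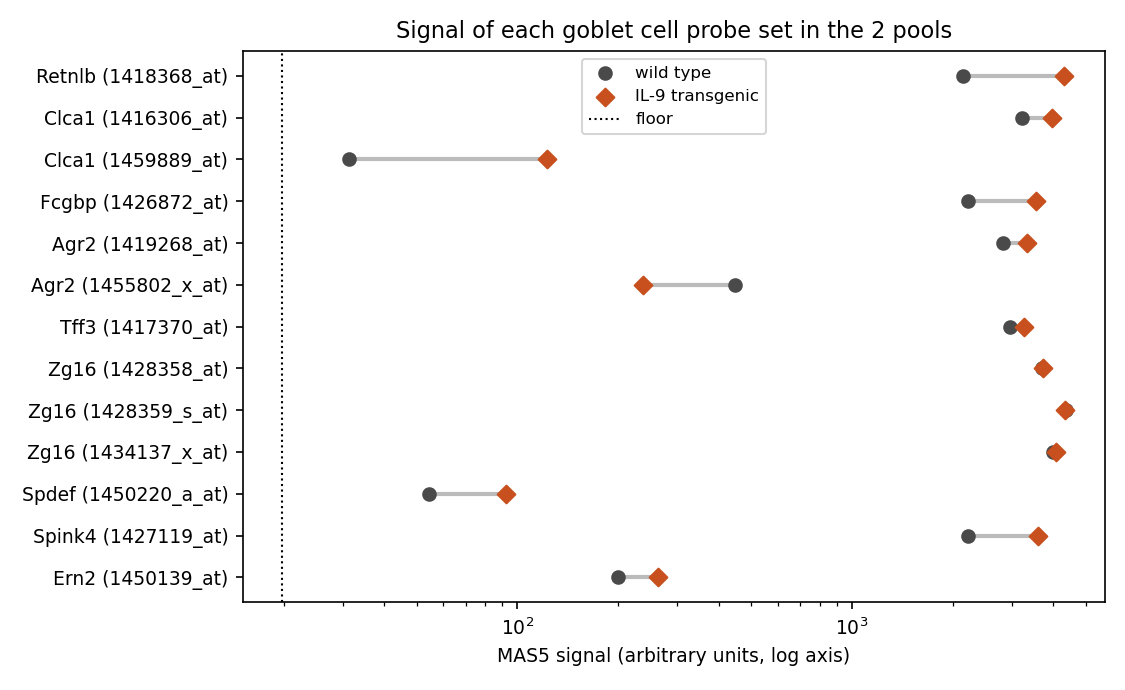
MAS5 signal (log axis, arbitrary units) of the 13 probe sets of the 9 genes in the wild-type pool (circles) and the IL-9 transgenic pool (diamonds), 1 array each, with the floor of 19.8 as a dotted line. Retnlb, Fcgbp and Spink4 lie at 2153 to 2217 in wild type and at 4314, 3561 and 3588 in the transgenic pool, the 3 Zg16 probe sets barely move, and 1 Agr2 probe set lies lower in the transgenic pool.

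Among the secreted proteins, Retnlb had the largest ratio. It encodes RELMβ, a small cysteine-rich protein that goblet cells release into the lumen and that acts on bacteria. Its probe set 1418368_at read 2153 in wild type and 4314 in transgenic colon, a log2 ratio of 1.003 or 2.004-fold. On its array this signal ranked 231st from the brightest of 22626 probe sets in wild type and 11th in transgenic colon. Of 8346 measured genes, 64 had a ratio at least as high, Retnlb included. The 2-fold threshold runs directly beside it: the nearest genes inside were Vwf and Plvap (both at a log2 ratio of 1.01), and the nearest below was Ptpn23 (0.9997), whose wild-type signal was under the floor. The log2 ratio of Retnlb was 0.99 after scaling by array medians, 0.99 after loess and 0.98 relative to pan-epithelial genes, all under the threshold.

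Fcgbp and Spink4 came next among the secreted proteins. Fcgbp encodes a very large protein of the mucus gel, built of repeated von Willebrand factor type D domains. Its probe set 1426872_at read 2217 in wild type and 3561 in transgenic colon, a log2 ratio of 0.68, which is 1.61-fold and short of the threshold. Spink4 encodes a small secreted protein of the Kazal-type serine protease inhibitor family. Its probe set 1427119_at read 2216 in wild type and 3588 in transgenic colon, a log2 ratio of 0.70. The ranks of Fcgbp, Spink4 and Retnlb were 219th, 220th and 231st in wild type, and 33rd, 32nd and 11th in the transgenic pool. Ranks of different probe sets depend on how well each binds, so their order is no order of RNA amounts.

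Clca1 gave unequal answers from its 2 probe sets. It encodes a metalloprotease of the mucus granule, known in mouse also as gob-5 and formerly as Clca3. The bright probe set 1416306_at read 3225 in wild type and 3978 in transgenic colon, a log2 ratio of 0.30, and its rank went from 58th to 18th. The dim probe set 1459889_at read 31.3 and 122, a log2 ratio of 1.97 or 3.91-fold. Both lay higher in the transgenic pool, but the dim probe set was among the 13 highest ratios of 13070 measured probe sets, of which 0.712% passed 2-fold in this direction. The ratios of the probe sets differed by 1.66 on the log2 scale, and 8 of 2847 genes with several probe sets had a span that wide (0.281%). The bright probe set had 46.9 times the mean signal of the dim one, and which of them tracks Clca1 RNA more closely was not tested.

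Tff3 and Zg16, both bright in wild type, differed little. Tff3 encodes a trefoil peptide that is secreted with mucin and is known for its part in epithelial repair. Its probe set 1417370_at read 2967 in the wild-type pool and 3261 in the transgenic pool, a log2 ratio of 0.14, less than the SD of 0.28 between probe sets of a gene. Zg16 encodes a lectin-like protein that binds bacterial peptidoglycan in the mucus. Its 3 probe sets read 3693, 4353 and 3993 in wild type and 3729, 4330 and 4070 in transgenic colon (1428358_at, 1428359_s_at and 1434137_x_at). Their log2 ratios were 0.01, −0.01 and 0.03, a span of 0.035, at ranks from 8th to 26th on both arrays.

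**Figure D2:**
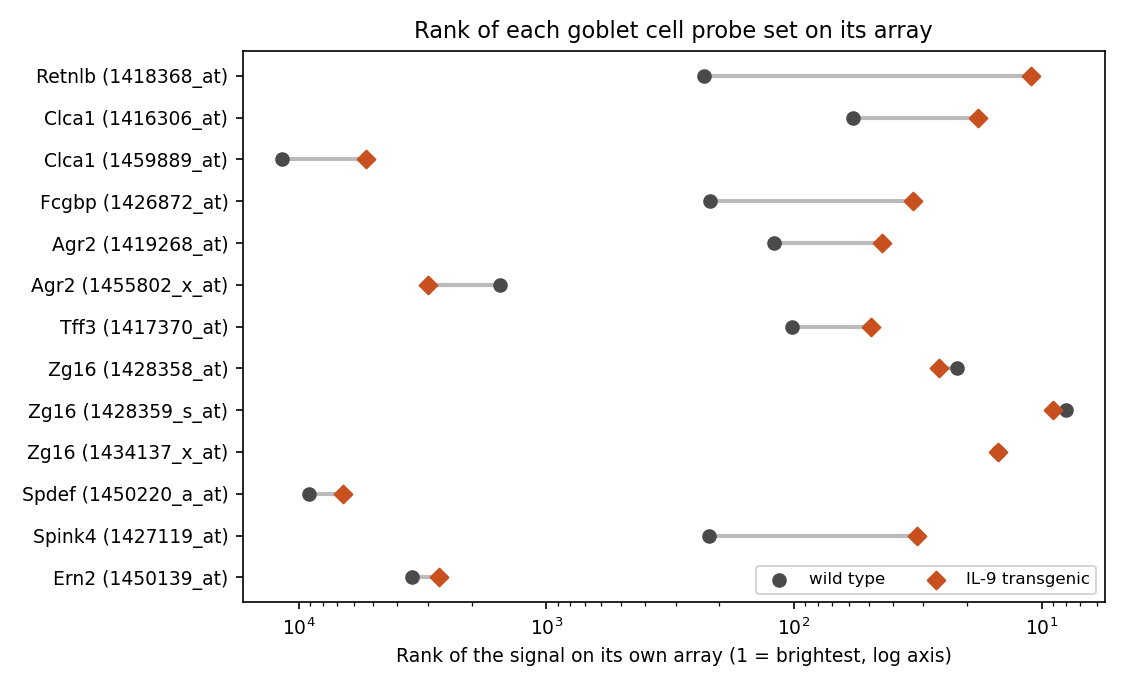
Rank of each of the 13 probe sets among the 22626 non-control probe sets of its own array (log axis, 1 = brightest, brighter to the right), wild type as circles and IL-9 transgenic as diamonds. Retnlb goes from 231st to 11th and Fcgbp and Spink4 from about 220th to about 33rd, while the 3 Zg16 probe sets stay between 8th and 26th.

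The top of the scale limits what these bright probe sets can show. The brightest probe set of any gene read 4760 in wild type and 4753 in the transgenic pool. Reaching that highest transgenic signal would have given Zg16 (1428359_s_at) a log2 ratio of 0.13, Clca1 (1416306_at) one of 0.56, Tff3 one of 0.68 and Agr2 (1419268_at) one of 0.75. For Retnlb, Fcgbp and Spink4 the same limit lay at 1.14, 1.10 and 1.10. Members that were brightest in wild type had both the least room and the smallest ratios, and the part of compression in the small ratios was not tested.

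Among bright probe sets the larger member ratios were uncommon. Of 226 probe sets above 2000 on both arrays, 9 belonged to these genes. Log2 ratios in this range ran from −0.17 to 0.23 between the 5th and 95th percentiles. Ratios above 0.5 were found for 4 of the 226: Retnlb, Spink4, Fcgbp and Reg4, a lectin-like Reg family gene of secretory epithelial cells (2397 to 3619, log2 ratio 0.59). With the bound at 1000 there were 548 probe sets, of which 5 exceeded 0.5. The added probe set was that of Mptx1, a pentraxin (1295 to 3361, log2 ratio 1.38). With the bound at 500, 12 of 1231 exceeded 0.5, and with the bound at 3000, 0 of 76 did, where the highest signal allows at most 0.67. Members made up 3 of the 12 and 4 of the 76. These bounds, Reg4 and Mptx1 were chosen after the values were seen, and members were part of the range they are set beside.

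**Figure D3:**
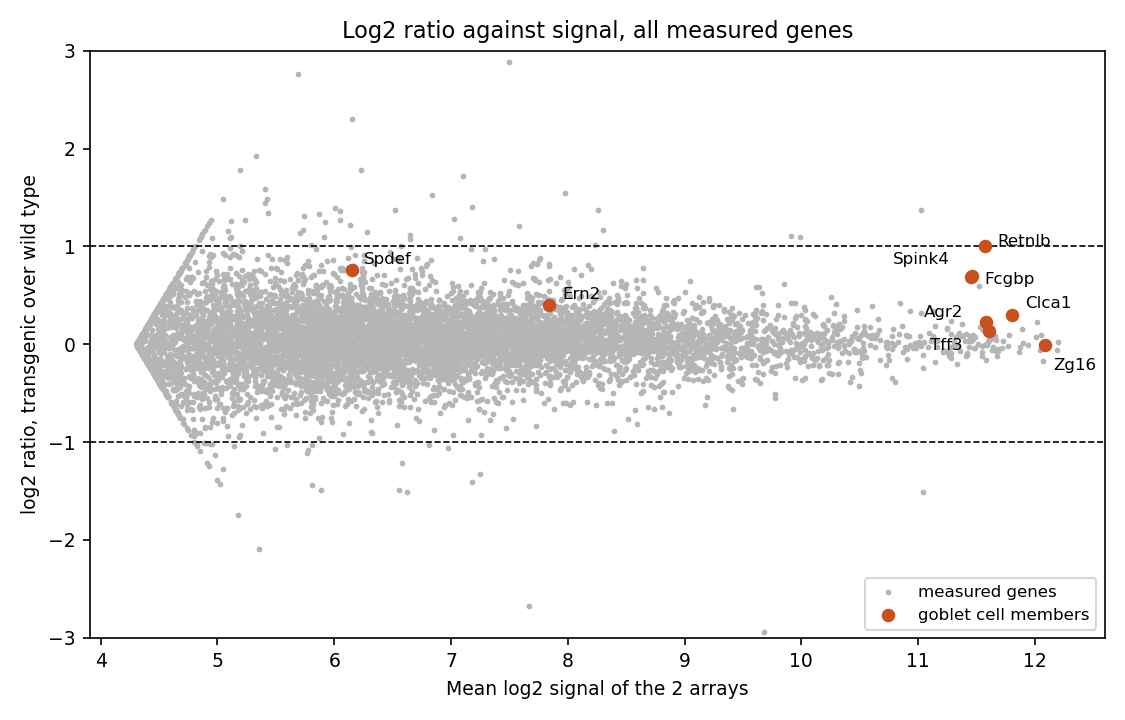
Log2 ratio (transgenic over wild type) against mean log2 signal of the 2 arrays, for the 8346 measured genes (grey) and the 9 goblet cell genes (orange, labelled); dashed lines mark 2-fold, and 23 genes beyond a log2 ratio of 3 in size lie off the axis. Of the 9 genes, 7 sit at the bright end, where grey points spread little, and Retnlb, Spink4 and Fcgbp stand above that spread.

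Agr2, Ern2 and Spdef act inside the cell, in the secretory pathway and in gene regulation. Agr2 encodes a protein disulfide isomerase family member of the endoplasmic reticulum, needed in mouse intestine to make MUC2. Its bright probe set 1419268_at read 2834 in wild type and 3329 in transgenic colon, a log2 ratio of 0.23. Its other probe set 1455802_x_at read 448 and 237, a log2 ratio of −0.92, so it was 1.89-fold lower. The opposite signs leave the direction of Agr2 unsettled in these data. Of 2847 genes with several probe sets, 54 (1.90%) had ratios at least as far apart as the 1.15 between these, and the ending _x_at marks probes that can also bind other transcripts.

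Ern2 encodes IRE1β, a stress sensor of the endoplasmic reticulum found in mucus-secreting epithelia. Its probe set 1450139_at read 200 in wild type and 264 in transgenic colon, a log2 ratio of 0.40, and its rank went from 3488th to 2717th. The ubiquitous relative Ern1 was below the floor in both pools (14.3 and 14.2). Spdef had the second largest ratio of the 9. Its probe set 1450220_a_at read 54.5 and 92.3, a log2 ratio of 0.76 or 1.69-fold. These signals are 2.75 and 4.66 times the floor, in a range where ratios of measured genes spread more widely than at the bright end, as the plot of ratio against signal shows. Of the measured genes, 161 had a ratio at least as high as Spdef, 210 as Spink4, 219 as Fcgbp and 856 as Ern2.

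Together the brightest probe sets of the 9 genes summed to 20220 in wild type and to 26717 with the transgene, 1.32 times as much. Without Retnlb the sums were 18067 and 22404, a ratio of 1.24. The 20 pan-epithelial genes, which all gut epithelial cells express (among them Epcam, Krt8 and Vil1), had sums in a ratio of 1.01 and a median log2 ratio of 0.03. Absorptive colonocyte genes had sums in a ratio of 1.01 and enteroendocrine genes in a ratio of 0.809. In pooled whole-tissue RNA, more goblet cells, more RNA per goblet cell and a difference in the tissue sampled cannot be told apart.

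Other genes of goblet cells were mostly higher by small amounts. Of 53 such genes listed, 42 had a single-symbol probe set and 37 were measured. Of these 37, 33 had a log2 ratio above 0, against 56.0% of all measured genes. The median was 0.29. A single ratio of that size is close to the SD of 0.28 between probe sets of a gene, which is no spread of a list median. None reached 2-fold in either direction, against 0.767% of measured genes higher and 0.611% lower. The largest in size were Capn8, a calpain protease, at −0.99 with its transgenic signal under the floor (39.4 to 17.2), Slc12a8, a membrane transporter, at 0.88 (77.3 to 142) and Capn9, another calpain of the gut, at 0.86 (161 to 291). Muc2, which encodes the main gel-forming mucin, was not analysed here, since it had no single-symbol probe set.

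The following genes of this list were named after their values were seen. Atoh1, the transcription factor that commits cells to the secretory lineage, read 248 and 348 (log2 ratio 0.49). Gfi1, which acts after Atoh1, was under the floor in wild type (16.3) and read 28.2 in transgenic colon. Creb3l1, a membrane-bound transcription factor, read 280 and 346 (0.31), and Foxa3 88.8 and 111 (0.33). Foxa1 and Foxa2 of the same list differed little, at 0.07 (404 to 424) and 0.03 (97.4 to 99.7). Klf4, a factor needed for goblet cell maturation in mouse colon, read 1009 and 990 (−0.03), with its other probe set at 0.29. The membrane mucin genes Muc13 and Muc3 had log2 ratios of 0.07 and −0.05 at their brightest probe sets, and the other probe set of Muc13 had −0.47. The gastric and airway mucin genes Muc5ac and Muc5b were below the floor in both pools.

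**Figure D4:**
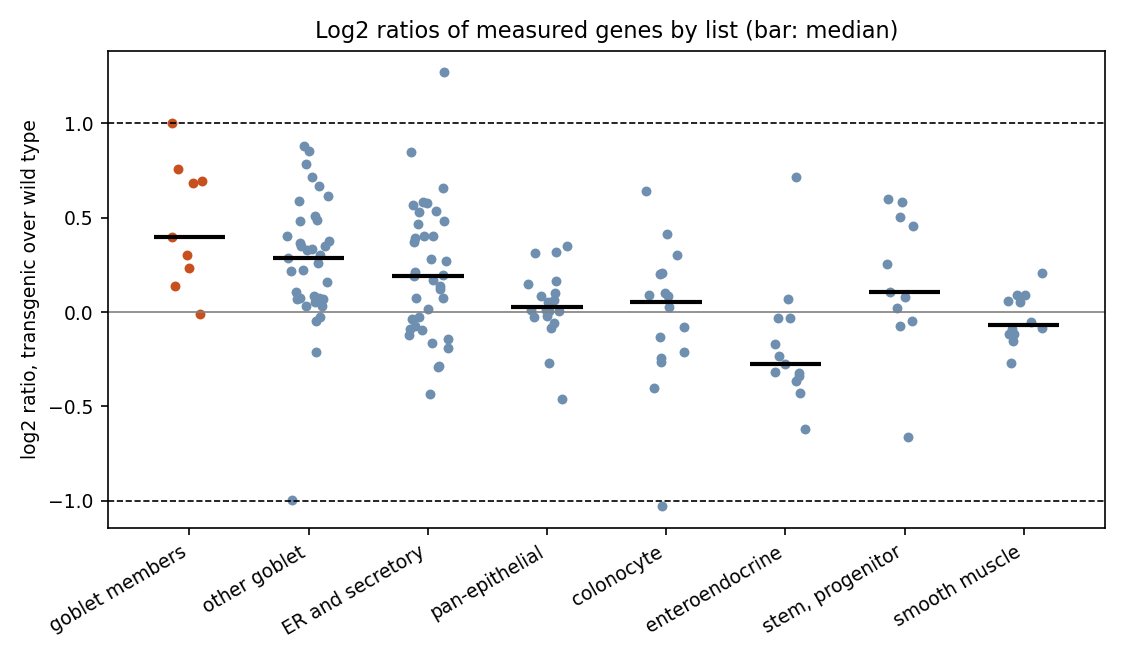
Log2 ratios (transgenic over wild type) of the measured genes of 8 lists, 1 point per gene, with the list median as a black bar and 2-fold as dashed lines. The medians are 0.40 for the 9 goblet cell genes, 0.29 for other goblet cell genes, 0.19 for endoplasmic reticulum and secretory genes, 0.03 for pan-epithelial genes and −0.28 for enteroendocrine genes.

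Genes for protein folding in the endoplasmic reticulum, which every secretory cell uses, had a median log2 ratio of 0.19 over 37 measured members. Of these, 25 were above 0, against 56.0% of all measured genes. A 2-fold higher call, which 0.767% of measured genes received, was reached by 1. It was Kdelr3, a retrieval receptor of the secretory pathway (42.7 to 103, log2 ratio 1.27). Sdf2l1 and Txndc5 followed at 0.85 and 0.66. Xbp1, whose mRNA is spliced by IRE1 enzymes, had 0.07 at its brightest probe set and −0.41 to 0.12 at its 3 others, and the array does not read its splicing. Plasma cells also express these genes, and B cell genes were higher in the same pool. Of 7 measured B cell genes, 5 were at least 2-fold higher, against 0.767% of all measured genes. The 10 B cell genes on the array summed to 278 in wild type and 1040 with the transgene. The part of B-lineage cells in the folding genes was not tested.

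Relatives of the 9 genes did not share a direction. Of 13 family genes with a probe set, 10 were measured, 5 above 0 and 5 below. Retnla, which encodes RELMα and is known from alternatively activated macrophages, read 117 and 178 (log2 ratio 0.61), and Retn, encoding resistin, 34.2 and 29.6 (−0.21). The Clca1 relatives Clca3b and Clca3a1 had 0.44 and 0.28, and Clca3a2 was below the floor in both pools. Of the trefoil genes, Tff2 was lower by at least 9.22-fold in the transgenic pool (182 to 3.65) and Tff1 had −0.47 (90.3 to 65.0), where Tff3 had 0.14. Most measured pancreatic acinar genes were also lower in that pool. The part of pancreatic RNA in the wild-type signal of Tff2 was not tested. The ETS genes Ehf and Elf3, both of epithelial cells, had −0.03 and 0.00, where Spdef had 0.76. Agr3 was near the floor in both pools (19.9 and 15.3), and the protease inhibitor gene Spink1 had 0.18. The list also held Tmed6 (51.7 to 9.36), which belongs to none of these families, was listed in error and is left out of these counts.

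Of the genes for signals that act on goblet cells, 17 of 26 on the array were measured. The cytokine genes Il4, Il13 and Il25 were below the floor in both pools. Besides Il9 itself, the largest ratios in size in this list were those of Il4ra, a receptor chain shared by IL-4 and IL-13, at 0.72 as a lower bound (16.4, under the floor, to 32.7), and Il33, an epithelial and stromal alarmin, at −0.53 (28.6 to 15.9, under the floor). Il13ra1, the partner chain in the IL-13 receptor, had 0.16 at its brightest probe set and −0.49 to 0.37 at its 3 others, and Stat6, the factor this receptor activates, −0.31 with its other probe set at 0.39.

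Markers of other cells, those of pancreas included, differed between the 2 pools as well. The call of 2-fold lower was reached by 17 of 20 measured pancreatic acinar genes, against 0.611% of all measured genes. Leaving out Zg16, which the exocrine pancreas also makes in its zymogen granules, the 20 acinar genes on the array summed to 44679 in wild type and 7231 in transgenic colon. Zg16, Sycn and Spink1 were the acinar-list genes that did not reach 2-fold, at log2 ratios of −0.01, −0.06 and 0.18. Whether pancreatic tissue was taken along with the wild-type colon was not tested. Nor was the part of pancreatic RNA in the wild-type signal of Zg16. Mast cell genes summed to 304 in wild type and 3425 with the transgene, where Mcpt2 read 1472 and Mcpt1 1297. Of 10 measured mast cell genes, 5 were at least 2-fold higher, against 0.767% of all measured genes. Tpsab1 (−0.30) and Gata2 (−0.18) were lower. Of the 4 measured Paneth cell genes, 3 were higher by 2-fold or more (Itln1, Pla2g2a and Mptx1), against 0.767% of all measured genes. Itln1 had a wild-type signal of 1.86, under the floor. The other measured gene, Lyz1, read 1191 and 1372 (log2 ratio 0.20), with its other probe set at 0.25. Defa3, Mmp7 and Habp2 were below the floor in both pools. Among tuft cell genes 3 of 8 were measured, with Alox5ap, which leukocytes also express, at 0.80.

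The crypt, colonocyte and smooth muscle lists had medians nearer to 0 than the enteroendocrine list. Enteroendocrine genes were above 0 in 2 of 13 measured members, against 56.0% of all measured genes. Their median was −0.28, and the largest in size were Tph1 (0.72), Tac1 (−0.62) and Insl5 (−0.43). Crypt stem and progenitor genes had a median of 0.11 over 11 members, with Cdca7 at −0.66, Rnf43 at 0.60 and Slc12a2 at 0.59. Colonocyte genes had 0.06 over 16 members, with Scnn1g at least 2.04-fold lower, Aqp4 at 0.64 and Fabp2 at 0.41. The other Aqp4 probe set had 1.02. Smooth muscle genes had a median of −0.07 over 12. At their brightest probe sets, none of the last list passed 0.27 in size, the value of Mylk, which was lower. Other probe sets went further: those of Mylk had −0.46 to −0.33 and that of Myh11 −0.39. The other Tpm2 probe sets ran from −0.30 to 0.09.

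**Figure D5:**
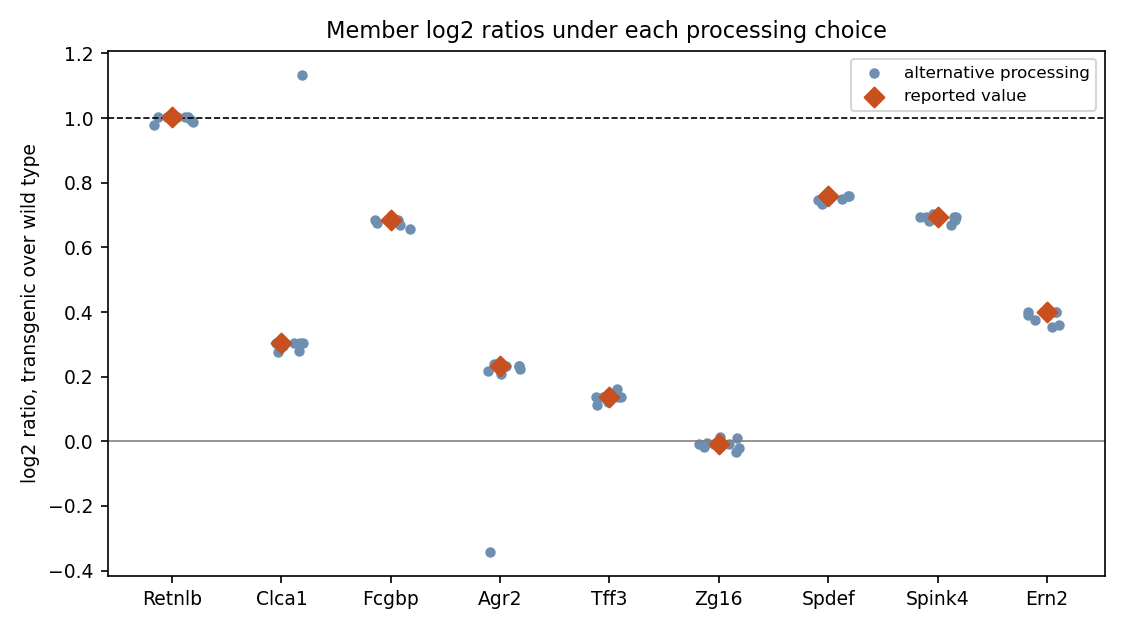
Log2 ratio of each of the 9 genes as reported (diamonds) and under up to 9 alternative processing choices (circles), with 2-fold as a dashed line. Values of 7 genes stay within a narrow band, Retnlb straddles the 2-fold line, and averaging all probe sets of a gene takes Clca1 to 1.13 and Agr2 to −0.34.

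For Clca1 and Agr2 the choice of probe set moved the value more than any scaling did, as the plot of processing choices shows. Over all settings tried, Fcgbp ran from 0.66 to 0.69, Spink4 from 0.67 to 0.70, Spdef from 0.74 to 0.76 and Ern2 from 0.35 to 0.40. Tff3 ran from 0.11 to 0.16 and Zg16 from −0.03 to 0.01, so the sign of Zg16 was not fixed.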

How the data were processed

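RNA from 1 pool of 4 mice per genotype was read on 1 Affymetrix array each. The deposited values are linear intensities, 1 for each probe set on each array, made by the authors with MAS5, per the submitters' processing notes; the version and detection calls are not given in the sources used here. Trimmed means (2% at each end) were 99.99 on both arrays, as scaling to a common target leaves.

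Of 22690 probe sets, 64 controls were left out. The platform annotation gave 20380 a single symbol, 691 several and 1555 none, and 20351 matched the RefSeq table of GRCm38.p6, which changed 0 symbols. Genes were named from single-symbol probe sets, and the brightest stood for its gene. Log2 ratios were computed above a floor of 19.8 and no further scaling was done. Ratios with a signal at the floor are bounds. A gene was measured if above the floor on either array.

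Groups came from the labels. The precision is limited by the number of arrays, and no test, standard error or p-value is given. All probe sets of the 9 genes are reported; from 14 other lists mainly the 3 measured genes of largest ratio in size, and the measured family relatives, were named, and not every gene this names is printed. The genes and lists were chosen with earlier results of these data known. Alternatives were median, quantile, loess (span 0.3) and pan-epithelial scaling, floors at the 20th and 60th percentiles, no floor with a pseudocount of 0.735, the mean of a gene's probe sets, and leaving out probe sets that can bind several transcripts. Python 3.11.15, pandas 2.3.3 and statsmodels 0.14.6 were used, and the steps were tested on simulated data.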

Additional observations from a re-analysis of the deposited data

How the results depend on the processing

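The count of genes at least 2-fold higher was 1 as reported. It was 0 after scaling by array medians, 0 after loess and 0 relative to pan-epithelial genes, since Retnlb then lay at 0.98 to 0.99. It was 2 when a gene's probe sets were averaged, Clca1 being added at 1.13, and the median of the 9 genes was then 0.68 in place of 0.40. Agr2 had −0.34 under that mean. The count of 2-fold lower members was 0 under all 9 alternatives, and 8 members were above 0 under each, although Zg16 turned from −0.01 to 0.01 when probe sets were averaged or dropped, Agr2 was below 0 when they were averaged, and Spdef had no value when probe sets able to bind several transcripts were dropped. The share of all measured genes at least 2-fold higher ran from 0.485% with a floor at the 60th percentile to 5.29% with none. No paired analysis was possible because each genotype has 1 array. Without replicate arrays no ratio has an error from animals, and signals near the floor or near the highest signal limit what a ratio can show.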
